A study of Mus with 8 samples.

Results

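The enzymes that carry acetyl-CoA through mevalonate to squalene were followed as liver transcripts in a mouse model of colitis with liver injury. The set holds 9 genes of the 54532 in the deposited table, matched by symbol and taken in pathway order: Acat2, Hmgcs1, Mvk, Pmvk, Mvd, Idi1, Fdps, Ggps1 and Fdft1. The members were named as a pathway, but with earlier results of these data known. All 9 were present in the table, and 8 passed the filter on low counts; Fdps did not.

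Liver RNA was sequenced as mRNA libraries from 2 groups of mice with 4 libraries each. DSSHA mice received dextran sulfate sodium (DSS, a polysaccharide that injures the colonic epithelium), a high-fat diet and alcohol, and gave libraries 35, 45, 65 and 71. DSS mice are labelled with DSS alone and gave libraries 15, 48, 49 and 50. All mice had DSS at 2.5% until day 6, and the diets followed. The series text names a purified high-fat feed, or a high-fat feed together with alcohol, for the time after DSS, and the labels do not state outright what the DSS group ate. Strain, sex and age are not given in the labels. Alcohol always came with the high-fat diet, and what each contributed cannot be told apart; mice without DSS were not analysed here. The labels do not say that each library is a separate mouse, so a p-value here measures only how these libraries spread, which may be technical.

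Mevalonate synthesis begins with the joining of acetyl-CoA units and runs through phosphorylated intermediates to isopentenyl diphosphate, the building block of all isoprenoids. Farnesyl diphosphate is the branch point: squalene synthase commits it to cholesterol, while geranylgeranyl diphosphate synthase lengthens it for the prenylation of proteins. In liver the genes are classic targets of SREBP2, a transcription factor released from the endoplasmic reticulum when membrane sterol falls and held there by the INSIG proteins when sterol is high.

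Libraries held 12502300 to 16967839 counts, of which nuclear genes took 2722757 to 10947612. Mitochondrially encoded transcripts took 30.2 to 73.0% of counts in DSSHA libraries and 55.8 to 79.1% in DSS libraries. Their mean was 45.2% ± 19.2 in DSSHA livers and 65.2% ± 11.4 in DSS livers (n = 4 each, errors are SD; two-sided exact permutation test, p = 0.143). Library 35 stood apart on the first principal component, at -154 where the other 7 ran from 6.13 to 33.7, and had only 784 genes at 1 to 9 counts, against 4319 to 4987 elsewhere. It also listed 0 for 101 of the 6427 genes (1.57%) that had at least 50 counts in each of the other 3 DSSHA libraries; in the same comparison within its own group no other library listed more than 1. Of 9 hepatocyte markers 8 were matched by symbol, and their summed level was 29000 to 37700 CPM in DSSHA livers and 43700 to 68200 CPM in DSS livers, with none past the test. None of the matched markers was at 0 in all 8 libraries. CPM are counts scaled to a common library total with TMM factors.

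Enzymes at the start, the middle and the end of the route to squalene were more abundant in DSSHA than in DSS livers. Idi1 was 20.1-fold higher in DSSHA livers, Mvk 5.88-fold, Hmgcs1 4.05-fold and Fdft1 3.17-fold. Acat2, Pmvk and Mvd had positive differences that did not pass the test, and Ggps1, on the side branch to protein prenylation, had a log2 fold change of -0.01. Of the 8 members tested, 4 rose, 0 fell and 4 did not pass (edgeR's quasi-likelihood test at a Benjamini-Hochberg adjusted p under 0.05 over all 11729 genes tested). At an unadjusted p under 0.05, 6 of the 8 were higher and 0 lower; DESeq2 called 5 higher and 0 lower, and limma-voom 2 higher and 0 lower. With 1 library left out the count was 3 without DSSHA library 45 or DSS library 48, 49 or 50, and 5 without DSSHA library 35, where Mvd passed too, or 65, where Acat2 did. With the mitochondrial share as a covariate it was 1. Across all genes tested, edgeR called 0.588% higher in DSSHA livers and 1.26% in either direction. The share called higher was 5.94% at an unadjusted p under 0.05, 1.40% with DESeq2, 0.392% with limma-voom and 0.239% with the covariate. In 5 of the 8 tested members every DSSHA library lay above every DSS library, against 4.14% of all genes tested. The median log2 fold change was 1.84 for the 8 members, 7 of them positive, and -0.01 for all genes tested, of which 49.5% were positive.

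**Figure D1:**
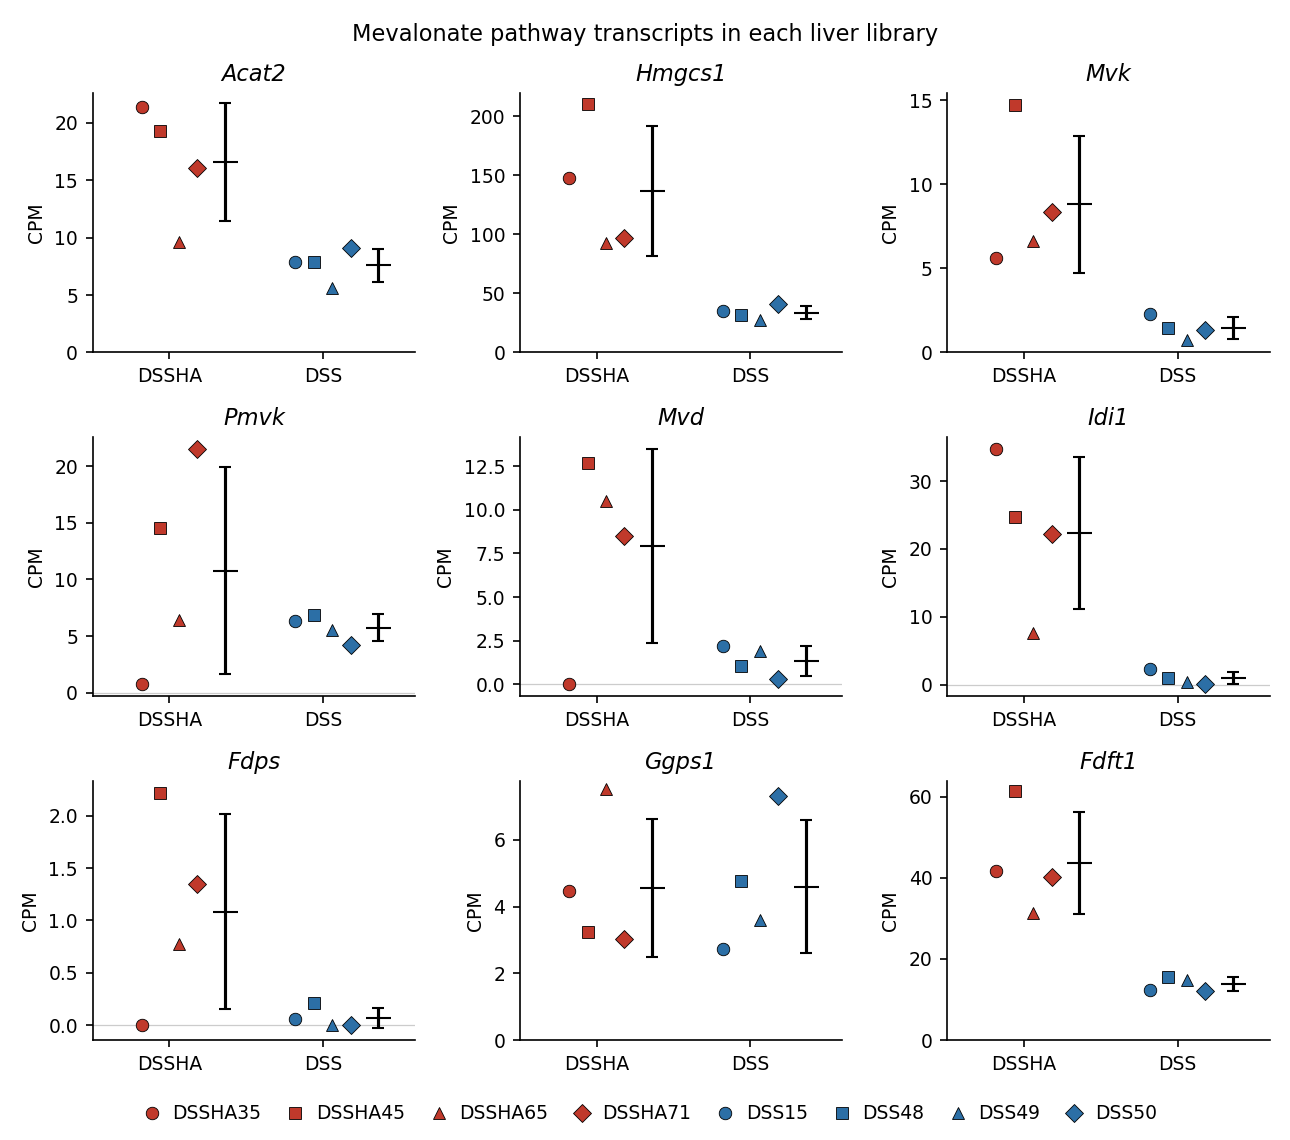
Level of each member in CPM in the 4 DSSHA libraries (left, red) and the 4 DSS libraries (right, blue), with the mean and SD beside each group; symbols name libraries and pair none. The groups do not overlap for Acat2, Hmgcs1, Mvk, Idi1 and Fdft1, while library 35 is the lowest DSSHA library for Mvk, Pmvk, Mvd and Fdps.

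The first steps make HMG-CoA in the cytosol. Acat2 (ENSMUSG00000023832, chromosome 17, 12942890 to 12960747, minus strand, GRCm38) condenses acetyl-CoA to acetoacetyl-CoA. It stood at 21.4, 19.3, 9.61 and 16.1 CPM in DSSHA libraries 35, 45, 65 and 71, against 7.86, 7.85, 5.63 and 9.09 CPM in DSS libraries 15, 48, 49 and 50. The groups did not overlap, but library 65 lay within 1 CPM of DSS library 50. The log2 fold change was 1.13 ± 0.28 (SE) and did not pass (edgeR adjusted p = 0.096). It passed with DESeq2 (adjusted p = 0.027) and without library 65 (edgeR log2 fold change 1.31, adjusted p = 0.032). The authors' deposited table lists the same log2 fold change as DESeq2 gave here, with an adjusted p of 0.028, and is not a separate result.

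Hmgcs1 (ENSMUSG00000093930, chromosome 13, 119690379 to 119708260, plus strand) adds a further acetyl group and makes HMG-CoA. It was the most abundant member per length in every library. Its level was 148, 210, 92.8 and 96.6 CPM in DSSHA libraries 35, 45, 65 and 71, and 35.5, 31.3, 27.4 and 40.8 CPM in DSS libraries 15, 48, 49 and 50. Even the lowest DSSHA library held more than any DSS library, and the DSS libraries lay close together. The log2 fold change was 2.02 ± 0.29 (SE; edgeR adjusted p = 0.0066), with means of 137 ± 55.0 CPM in DSSHA livers and 33.8 ± 5.74 CPM in DSS livers (SD, n = 4 each).

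The thiolase step has a mitochondrial counterpart in ketone body metabolism, which gives a comparison within a library. Acat1, the mitochondrial acetoacetyl-CoA thiolase, averaged 193 ± 89.9 CPM in DSSHA livers and 187 ± 16.7 CPM in DSS livers (SD, n = 4 each; log2 fold change 0.04 ± 0.31, edgeR adjusted p = 0.98). Per length, Acat2 reached 10.5, 12.4, 10.6 and 22.7% of Acat1 in DSSHA libraries 35, 45, 65 and 71, against 6.27, 5.76, 4.2 and 8.15% in DSS libraries 15, 48, 49 and 50. That ratio was 2.24-fold higher in DSSHA livers, and the groups did not overlap (two-sided exact permutation p = 0.0286, the smallest that 70 assignments can give). Relative to Acat3, a neighbouring and near-identical copy whose reads the counting could have shared, Acat2 stood at 23.9 to 68.4% in DSSHA libraries and 8.46 to 26.7% in DSS libraries, and the groups overlapped (exact permutation p = 0.0571, n = 4 each). Both ratios were chosen after the values had been seen, so their p-values are given as a description only. Adjusted over the 3 ratios computed in this family, the exact permutation p-values were 0.0429 for Acat1 and 0.0571 for Acat3. Scaling by library size cancels in such a ratio.

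The next 3 enzymes phosphorylate and decarboxylate mevalonate to isopentenyl diphosphate. Mvk (ENSMUSG00000041939, chromosome 5, 114444269 to 114460591, plus strand), mevalonate kinase, had 5.6, 14.7, 6.63 and 8.33 CPM in DSSHA libraries 35, 45, 65 and 71, against 2.31, 1.47, 0.719 and 1.34 CPM in DSS libraries 15, 48, 49 and 50. All 4 DSSHA libraries were above all 4 DSS libraries. Mvk rose by 2.56 ± 0.44 on the log2 scale (SE; edgeR adjusted p = 0.014). The DSS libraries together held 73 Mvk counts, and the call was lost without DSSHA library 45 (edgeR adjusted p = 0.065) or DSS library 48, 49 or 50 (0.079, 0.056 and 0.070), and with limma-voom (0.14).

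Pmvk (ENSMUSG00000027952, chromosome 3, 89454541 to 89469013, plus strand), phosphomevalonate kinase, had 0.728, 14.5, 6.41 and 21.5 CPM in DSSHA libraries 35, 45, 65 and 71, and 6.36, 6.87, 5.51 and 4.17 CPM in DSS libraries 15, 48, 49 and 50. Library 35 was below every DSS library, library 65 lay among them, and 45 and 71 lay above. The log2 fold change was 0.91 ± 0.68 (SE; 95% interval -0.58 to 2.41, edgeR adjusted p = 0.69), or 1.30 ± 0.34 without library 35 (adjusted p = 0.064).

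Mvd (ENSMUSG00000006517, chromosome 8, 122433601 to 122443422, minus strand) decarboxylates diphosphomevalonate to isopentenyl diphosphate. It had no count in DSSHA library 35, which allows up to 0.168 CPM at 3 counts, and 12.7, 10.5 and 8.49 CPM in DSSHA libraries 45, 65 and 71, against 2.18, 1.05, 1.92 and 0.298 CPM in DSS libraries 15, 48, 49 and 50. Library 35 decided this gene: the other 3 DSSHA libraries lay well above all DSS libraries. With all 8 libraries the log2 fold change was 2.49 ± 1.01 (SE; edgeR adjusted p = 0.35). Without library 35 it was 2.88 ± 0.42 and passed (adjusted p = 0.0013). Such limits from a count of 0 cover counting error only. Mvd lies wholly within the span of Gm20388, an annotated gene on the opposite strand that was listed at 0 in all libraries, and how reads in that overlap were counted is not given in the sources used here.

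Isomerization and chain growth follow. Idi1 (ENSMUSG00000058258, chromosome 13, 8885501 to 8892451, plus strand) converts isopentenyl to dimethylallyl diphosphate, the primer for chain growth. Its counts were 620, 600, 69 and 560 in DSSHA libraries 35, 45, 65 and 71, against 37, 15, 4 and 1 in DSS libraries 15, 48, 49 and 50. On the CPM scale these were 34.7, 24.7, 7.62 and 22.2 in DSSHA livers and 2.31, 1.05, 0.479 and 0.149 in DSS livers. Both groups spread widely, with library 65 lowest of the DSSHA libraries and library 15 highest of the DSS libraries, and still they did not overlap. The log2 fold change was 4.33 ± 0.63 (SE; 95% interval 2.95 to 5.71, edgeR adjusted p = 0.0066). It ran from 4.01 without library 35 to 5.13 without DSS library 15 and passed in all 8 fits that left out 1 library (adjusted p up to 0.046), but limma-voom, at 4.33 too, left it uncalled (adjusted p = 0.20). Its paralog Idi2 was listed at 0 in all 8 libraries.

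Fdps (ENSMUSG00000059743, chromosome 3, 89093588 to 89101959, minus strand) makes farnesyl diphosphate and had the fewest counts of the set. Its counts were 0, 54, 7 and 34 in DSSHA libraries 35, 45, 65 and 71, against 1, 3, 0 and 0 in DSS libraries 15, 48, 49 and 50. The 3 DSSHA libraries with counts were above all DSS libraries, and library 35 was at 0. Too few counts were left for the main test; fitted with no filter, its log2 fold change was 3.66 ± 1.36 (SE; edgeR adjusted p = 0.31), or 4.02 without library 35 (adjusted p = 0.0020). The authors' deposited table lists a log2 fold change of 3.80 with an adjusted p of 0.16. For 7512 bases Fdps lies within the span of Gm43738 on the same strand, which was listed at 0 in all libraries, and 1 annotated Fdps pseudogene was listed at 0 too. How reads that fit more than 1 of these were counted is not known here, so the level of Fdps relative to the other members is uncertain.

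At the branch point, Fdft1 (ENSMUSG00000021273, chromosome 14, 63145150 to 63179578, minus strand), squalene synthase, had the second highest mean level per length in DSSHA livers. It had 41.8, 61.4, 31.3 and 40.2 CPM in DSSHA libraries 35, 45, 65 and 71, against 12.3, 15.6, 14.9 and 12.2 CPM in DSS libraries 15, 48, 49 and 50. The lowest DSSHA library was above the highest DSS library by more than the whole range of the DSS group. Fdft1 rose by 1.66 ± 0.24 on the log2 scale (SE; edgeR adjusted p = 0.0066). Over 774 bases it overlaps Ctsb on the opposite strand, which held 1415 to 4742 counts per library; with the strand setting not given, some Fdft1 counts could stem from Ctsb.

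Ggps1 (ENSMUSG00000021302, chromosome 13, 14050659 to 14063488, minus strand), which makes geranylgeranyl diphosphate for protein prenylation, had 4.48, 3.25, 7.51 and 3.02 CPM in DSSHA libraries 35, 45, 65 and 71. It had 2.74, 4.77, 3.59 and 7.30 CPM in DSS libraries 15, 48, 49 and 50. The ranges overlapped almost wholly, and the 95% interval of the log2 fold change ran from -0.92 to 0.89 (edgeR adjusted p = 0.99), which leaves room for a change of nearly 2-fold either way. Its sign turned positive in 6 of 20 alternatives, among them upper-quartile normalization. Ggps1 shares 257 bases with Arid4b on the opposite strand, which held 47 to 110 counts per library.

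**Figure D2:**
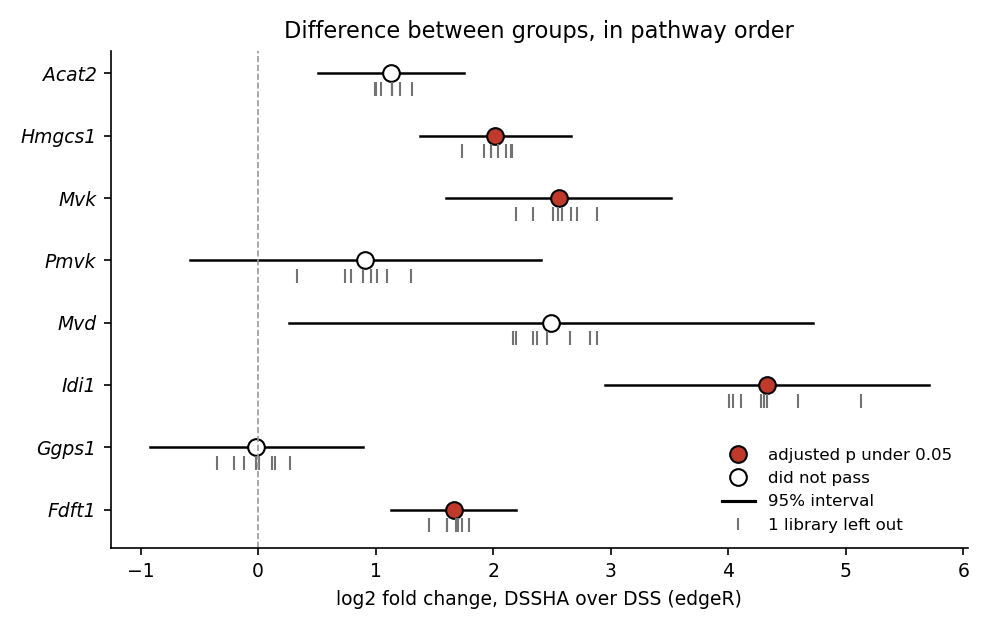
Log2 fold change of DSSHA over DSS for the 8 tested members in pathway order, with 95% intervals; filled points passed at an adjusted p under 0.05, and ticks under each point are the values with 1 library left out. Idi1 lies farthest right at 4.33, Ggps1 sits at -0.01, and the intervals of Pmvk and Mvd are the widest.

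Idi1 acts upstream of Ggps1, and Fdft1 draws on the same farnesyl diphosphate, so their levels were also set against each other within each library. The ratio of Idi1 to Ggps1 per length was 10.4, 10.2, 1.37 and 9.92 in DSSHA libraries 35, 45, 65 and 71, against 1.13, 0.297, 0.180 and 0.0275 in DSS libraries 15, 48, 49 and 50. The groups did not overlap, though library 65 was close to DSS library 15 (log2 difference 4.93, exact two-sided permutation p = 0.0286). The ratio of Fdft1 to Ggps1 was 10.4, 21.1, 4.65 and 14.9 in DSSHA libraries, against 5.03, 3.66, 4.62 and 1.87 in DSS libraries in the same order. Here library 65 fell inside the DSS range (log2 difference 1.65, exact permutation p = 0.0571, n = 4 each). Adjusted over the 2 ratios, p was 0.0571 for each, so neither passed. The ratio of Idi1 to Ggps1 was 9.92 to 10.4 in the 3 DSSHA libraries with a mitochondrial share of 30.2 to 42.2%. It was 1.37 in DSSHA library 65 at 73.0%. In DSS libraries 15, 48, 49 and 50 it was 1.13, 0.297, 0.180 and 0.0275, at shares of 55.8, 56.0, 69.9 and 79.1%. The part of the mitochondrial share in the ratios was not tested. A ratio of Fdft1 to Fdps was not formed because Fdps had no count in 3 libraries.

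**Figure D3:**
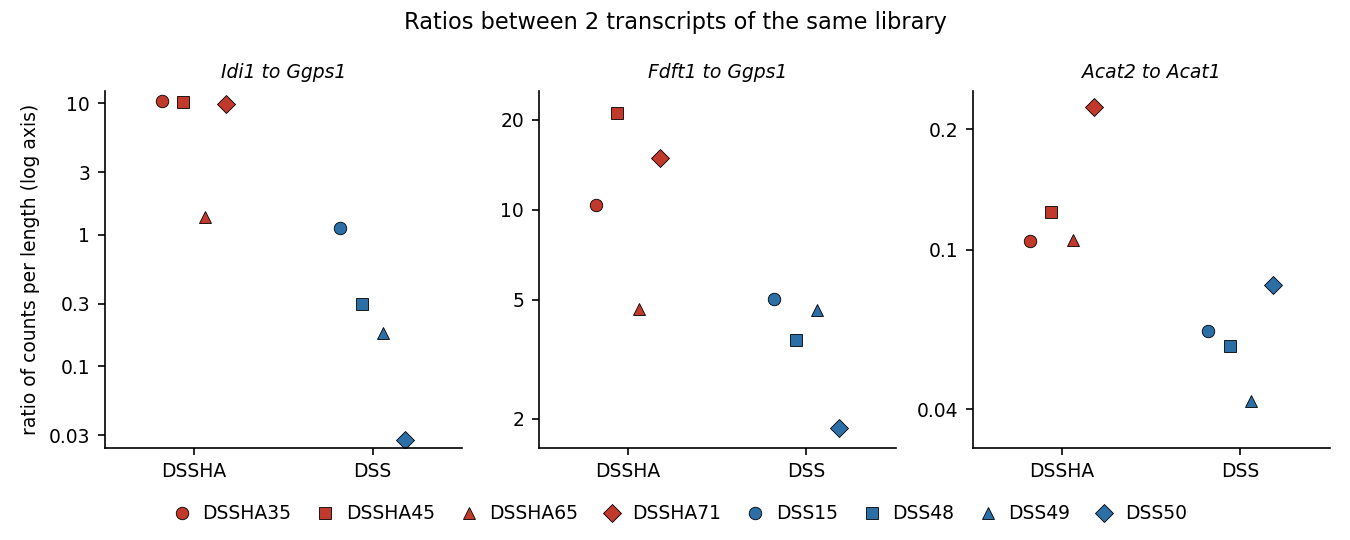
Ratio of counts per length between 2 transcripts of the same library on log axes, for DSSHA (left) and DSS (right) libraries; symbols name libraries. The ratios of Idi1 to Ggps1 and Acat2 to Acat1 do not overlap between groups, while for Fdft1 to Ggps1 library 65 lies among the DSS libraries. The ratio of Acat2 to Acat1 was chosen after the values had been seen.

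Levels can be compared between members only per length, for which the authors' deposited FPKM were used. The 9 members summed to 62.0, 95, 46.8 and 62.6 FPKM in DSSHA libraries 35, 45, 65 and 71, against 20.6, 19.7, 16.7 and 19.4 FPKM in DSS libraries 15, 48, 49 and 50. In DSSHA livers the order of mean levels was Hmgcs1 (29.1 ± 11.7 FPKM; SD, n = 4, as for all means here), Fdft1 (10.1 ± 2.92), Acat2 (6.37 ± 1.93), Idi1 (6.21 ± 3.08), Pmvk (6.16 ± 5.18), Mvd (4.19 ± 2.94), Mvk (3.23 ± 1.5), Ggps1 (0.949 ± 0.440) and Fdps (0.253 ± 0.218). From Fdft1 to Mvk, each gene's range of mean ± SD overlapped that of the next in this order. In DSS livers the order was Hmgcs1 (7.20 ± 1.2), Pmvk (3.28 ± 0.696), Fdft1 (3.19 ± 0.404), Acat2 (2.93 ± 0.548), Ggps1 (0.952 ± 0.402), Mvd (0.720 ± 0.456), Mvk (0.536 ± 0.244), Idi1 (0.280 ± 0.269) and Fdps (0.0159 ± 0.0231). There the ranges of Pmvk, Fdft1 and Acat2 overlapped from gene to gene, and so did those of Ggps1, Mvd, Mvk, Idi1 and Fdps.

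The members can also be read as parts of a whole. As a share of the summed FPKM of the 9 genes, Idi1 took 9.31% ± 4.65 in DSSHA livers and 1.42% ± 1.28 in DSS livers (SD, n = 4 each). Its lowest DSSHA share, 4.61% in library 65, was above its highest DSS share, 3.17% in library 15. Ggps1 took 1.64% ± 1.2 in DSSHA livers and 5.0% ± 2.04 in DSS livers, with library 65 inside the DSS range. Fdft1 took 15.2% ± 0.432 in DSSHA livers and 16.9% ± 3.14 in DSS livers. Hmgcs1 took 43.3% ± 7.75 in DSSHA livers and 37.6% ± 4.70 in DSS livers, with overlap. Shares sum to the whole, so a larger share of one member lowers the others; they are given as a description.

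**Figure D4:**
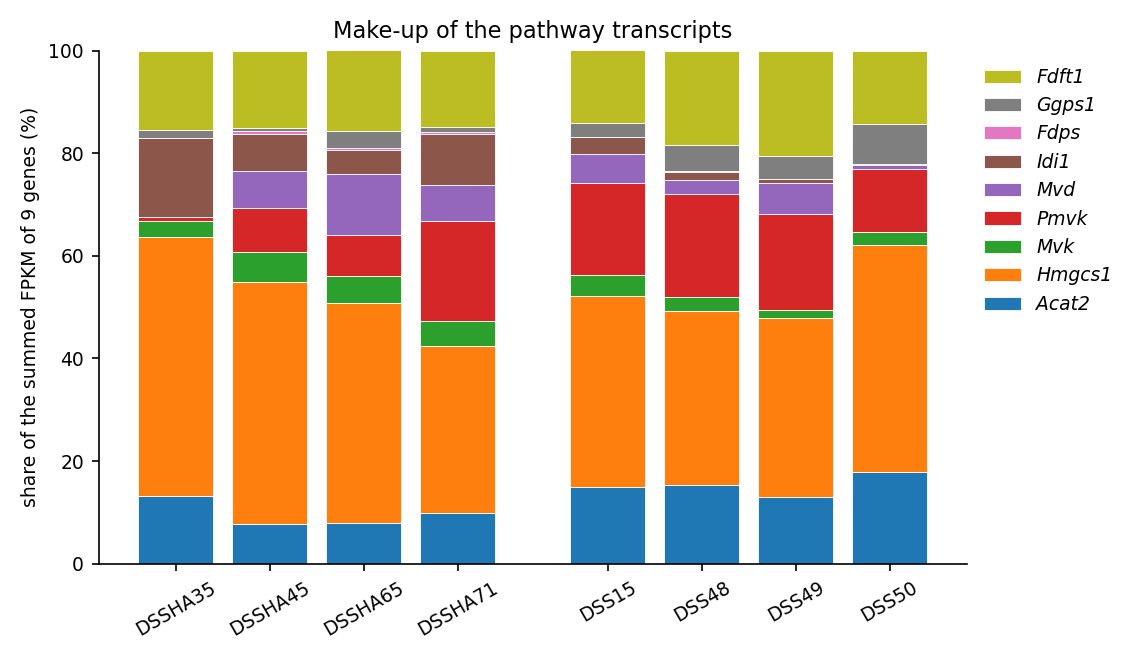
Share of each member in the summed FPKM of the 9 genes, as stacked bars for the 4 DSSHA libraries (left) and the 4 DSS libraries (right). Hmgcs1 is the largest segment in every library, and the Idi1 segment runs from 4.61 to 15.5% in DSSHA libraries and from 0.212 to 3.17% in DSS libraries.

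Inside the groups the members did not all rise and fall together. Library 65, with the highest mitochondrial share of its group (73.0%), was the lowest DSSHA library for Acat2, Hmgcs1, Idi1 and Fdft1 and the highest for Ggps1. Library 35 was the highest DSSHA library for Acat2 and Idi1 but the lowest for Mvk, Pmvk, Mvd and Fdps. Across the 8 libraries the log2 CPM of Mvk correlated with the mean profile of the other tested members at r = 0.96, and still at 0.76 once group means were subtracted. Fdft1 correlated at 0.91 and 0.34, Hmgcs1 at 0.88 and 0.23, and Idi1 at 0.80 and -0.17 in the same pair of measures. For Acat2 the pair was 0.72 and -0.15, for Mvd 0.40 and 0.27, and for Pmvk 0.17 and 0.42. Ggps1 stood at -0.27 and -0.61. These are descriptions over 8 libraries that share the scaling by library size, and the first value of each pair contains the group difference.

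The mitochondrial share was on average lower in DSSHA libraries, and with it as a covariate 1 of the 8 members was called higher. Idi1 stood at 3.36 ± 0.51 (edgeR adjusted p = 0.025), and the calls of Hmgcs1 (1.82, adjusted p = 0.076), Mvk (2.18, 0.099) and Fdft1 (1.39, 0.068) were lost with their direction unchanged. In that fit 55 genes passed, against 148 without the covariate. Leaving the mitochondrial genes out of the library totals and the test kept 4 members called.

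Enzymes beyond squalene extended the pattern in part. Of 12 sterol enzymes from squalene to cholesterol, all tested, 4 rose, 0 fell and 8 did not pass, where edgeR called 0.588% of all genes higher. Their median log2 fold change was 1.01, against -0.01 for all genes tested. At an unadjusted p under 0.05, 7 were higher and 0 lower, against 5.94% of all genes tested that were higher. Msmo1, a sterol methyl oxidase, had 28.5, 44.8, 14.2 and 28.9 CPM in DSSHA libraries 35, 45, 65 and 71, against 5.42, 6.66, 2.88 and 4.47 CPM in DSS libraries 15, 48, 49 and 50. The groups lay well apart. It rose by 2.57 ± 0.37 (SE; edgeR adjusted p = 0.0066) and passed in all 20 alternatives. Nsdhl, a sterol dehydrogenase that acts with it, rose by 2.46 ± 0.44 (adjusted p = 0.019), Lss, which cyclizes oxidosqualene to lanosterol, by 1.80 ± 0.36 (0.033), and Dhcr7, which reduces the last intermediate to cholesterol, by 1.2 ± 0.25 (0.042). The count was 5 without library 35 and 2 without DSS library 15 or 49. It was 1 without DSSHA library 45 or 71 or DSS library 48 or 50. It was also 1 with limma-voom or with the mitochondrial covariate, which called 0.392% and 0.239% of all genes tested higher. Tm7sf2, Lbr, Ebp and Sc5d, named after their values were seen, had negative log2 fold changes, from -0.63 to -0.04, and none passed.

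The other outlets of the pathway showed no called gene. Of 18 genes of non-sterol branches (dolichol, ubiquinone and protein prenylation), all tested, 0 were called by edgeR in either direction (median log2 fold change 0.08). At an unadjusted p under 0.05 the count was 1 higher, against 5.94% of all genes tested, and 0 lower. The gene, named here after its values were seen, was Dhdds, a subunit of the dolichol-making prenyltransferase (log2 fold change 1.08 ± 0.24, edgeR adjusted p = 0.058). DESeq2 called 1, where it called 1.4% of all genes it tested higher, and limma-voom called 0. Dhdds averaged 14.2 ± 0.887 CPM in DSSHA livers and 6.67 ± 1.66 CPM in DSS livers, without overlap. Icmt, the methyltransferase that caps prenylated proteins, also named after its values were seen, separated the other way, with 5.49 to 7.18 CPM in DSSHA livers and 7.43 to 8.67 CPM in DSS livers (log2 fold change -0.42 ± 0.24, edgeR adjusted p = 0.56). All DSSHA libraries lay above all DSS libraries for 4.14% of all genes tested, and below them for 4.63%. Upstream, of 7 tested genes of acetyl-CoA supply and related enzymes 0 were called by edgeR, DESeq2 or limma-voom, and 0 at an unadjusted p under 0.05; log2 fold changes ran from -0.26 to 0.27. Acly, which splits citrate into cytosolic acetyl-CoA, stood at 0.27 ± 0.25 (edgeR adjusted p = 0.76) and is likewise named after its values were seen.

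Among 13 tested genes of SREBP2 control and sterol uptake and efflux, of 14 listed, 1 rose, 0 fell and 12 did not pass (median log2 fold change -0.28; 3 higher and 0 lower at an unadjusted p under 0.05, where 5.94% of all genes tested were higher). Insig1, which helps to hold SREBP2 in the endoplasmic reticulum and is itself an SREBP target, rose by 1.63 ± 0.29 (edgeR adjusted p = 0.017), with 19.2 ± 6.6 CPM in DSSHA livers and 6.21 ± 0.864 CPM in DSS livers (SD, n = 4 each). Its call was lost without DSSHA library 45 or DSS library 48, 49 or 50 (edgeR adjusted p up to 0.093). DESeq2 called 2 of this list higher, limma-voom 1, and the fit with the mitochondrial covariate 0. Across all genes tested, edgeR called 0.588% higher, DESeq2 1.4% and limma-voom 0.392%.

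**Figure D5:**
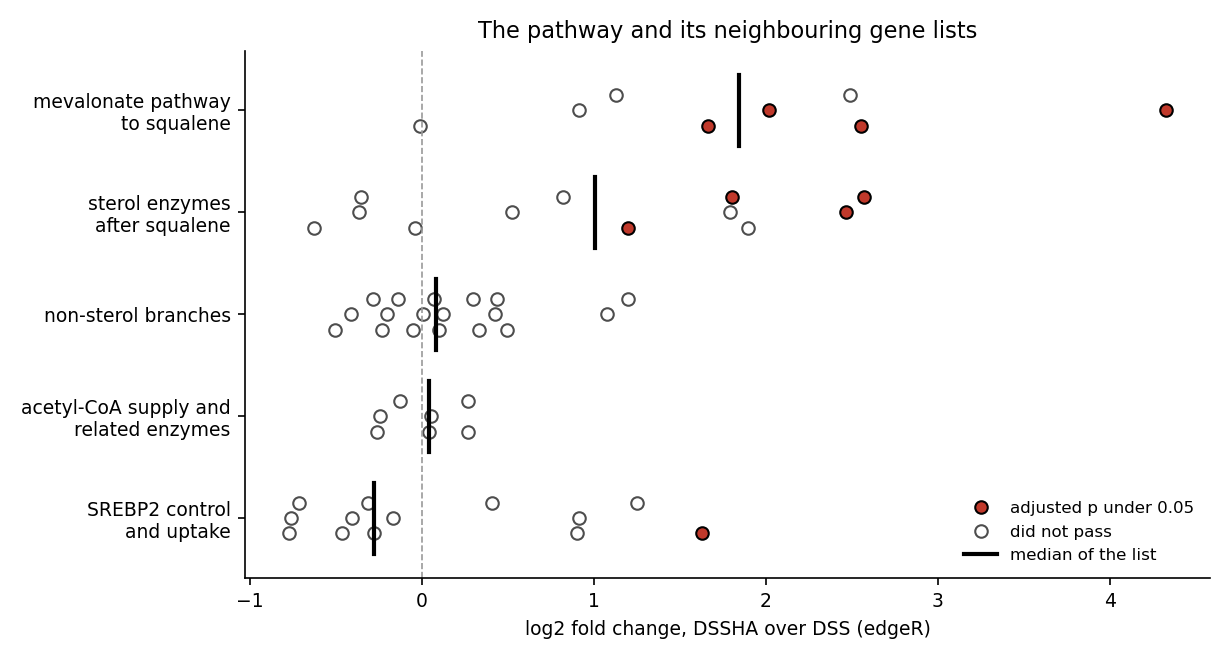
Log2 fold change of DSSHA over DSS for each tested gene of 5 lists, with a bar at the median of each list; filled points passed at an adjusted p under 0.05. The medians are 1.84 for the mevalonate pathway, 1.01 for sterol enzymes, 0.08 for non-sterol branches, 0.04 for acetyl-CoA supply and -0.28 for SREBP2 control.

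Outside the pathway, the 5 genes whose log2 CPM over the 8 libraries was most like the mean profile of the tested members were Saa2 (r = 0.984), Saa1 (0.980), Lrg1 (0.978), Acnat2 (0.977) and Orm1 (0.973). With group means subtracted, their correlations were 0.81 to 0.88. The members' profile contains the difference between the groups, so a choice by likeness to it favours genes that are higher in DSSHA livers. As a description, Saa2 averaged 7120 CPM in DSSHA livers and 116 CPM in DSS livers, and Acnat2 54.3 and 20.5 CPM in the same order. Saa1, Saa2 and Orm1 have near-identical copies, so their counts are uncertain singly.

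Summed neutrophil and Kupffer cell markers did not overlap between the groups, while those of cycling cells, cholangiocytes and erythroid cells did. Across all genes tested, edgeR called 0.588% higher in DSSHA livers. Of 10 neutrophil markers 4 were tested and 3 rose; their summed level was 29.4 to 62.3 CPM in DSSHA livers and 4.19 to 15.5 CPM in DSS livers. Of 7 Kupffer cell markers, all tested, 1 rose, and they summed to 306 to 611 CPM in DSSHA livers and 177 to 280 CPM in DSS livers. Cycling-cell markers (8 listed, 2 tested, 0 called) summed to 0.988 to 8.62 CPM in DSSHA livers and 3.83 to 7.0 CPM in DSS livers, cholangiocyte markers (5 listed, 4 tested, 0 called) to 9.92 to 60.5 and 12.9 to 25.2 CPM, and erythroid markers (5 tested, 0 called) to 381 to 760 and 171 to 2150 CPM in the same order. No marker of these lists was at 0 in all 8 libraries. Their part in the members' differences was not tested, and in bulk tissue fewer cells of a type and less RNA per cell cannot be told apart.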

How the data were processed

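The authors deposited 1 table with a raw count and an FPKM value per gene and library, and with their own log2 fold change, p-value and adjusted p-value for DSSHA over DSS, whose tool is not given. Builds GRCm38 and mm10 are named in the submitters' processing notes; no source used here gives the aligner, the counter or the use of strand. The deposited FPKM were checked to be counts per length over an effective library size proportional to DESeq2's size factor. No 2 libraries held identical counts.

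Counts were filtered with filterByExpr (edgeR 4.0.16, R 4.3.3), scaled by TMM and tested for all 11729 remaining genes with a robust quasi-likelihood F test (Benjamini-Hochberg). SE is the log2 fold change over the square root of F. Alternatives used DESeq2 1.42.0 and limma 3.58.1. Ratios were tested by exact permutation, and 1 of those computed is not reported here. All members were named, and up to 4 called genes per list by smallest p. The members and lists were chosen with earlier results of these data known.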

Additional observations from a re-analysis of the deposited data

How the results depend on the processing

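Of the 4 called members, Hmgcs1, Idi1 and Fdft1 kept their call in 19 of 20 alternatives each and Mvk in 13, and all 4 kept their direction in all 20. The number of members called was 4, and 2 with limma-voom and 1 with the mitochondrial share as a covariate; leaving out 1 library gave 3 to 5. The number of genes called over all genes was 148; it was 441 with DESeq2, 249 with no filter on low counts, 55 with the mitochondrial covariate and 61 at an adjusted p under 0.01, and 58 (without DSS library 48) to 308 (without DSSHA library 35) with 1 library left out. It was 74 without DSS library 49, 77 without DSS library 50 and 83 without DSSHA library 45. Leaving out 1 library gave 1 to 5 called sterol enzymes, 0 to 1 genes of non-sterol branches and 0 to 2 of SREBP2 control. Ggps1, at -0.01, turned to 0.018 with upper-quartile normalization and 0.58 with the mitochondrial covariate, and ranged from -0.35 to 0.27 with 1 library left out; it was 0.12 without DSSHA 45, 0.14 without DSSHA 71, 0.01 without DSS 48 and 0.27 without DSS 50. The log2 difference of the ratio of Idi1 to Ggps1 ran from 3.97 to 5.76 and that of Fdft1 to Ggps1 from 1.34 to 2.06 with 1 library left out, each within 1 SD of its value with all libraries. No paired analysis was possible because the groups share no library numbers. The cause of these shifts was not tested. Depth limits Idi1, Mvk, Mvd and Fdps most: the 4 DSS libraries held 57, 73, 68 and 4 counts of them in all.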
